A study of Aspergillus niger with 11 samples.

Results

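The comparison described here is between the middle and the early stage of oxygen limitation in fed-batch cultures of Aspergillus niger strain DS03043, and its members are all genes of the deposited tables. The 3 libraries of the middle limited phase, matched to 42 h, were set against the 3 libraries of the early limited phase, matched to 24 h. Of 10445 genes, 8693 had an FPKM of 1 or more in at least 2 of the 11 libraries and were tested, and 2933 of these had a mean of 30 FPKM or more over the 11 libraries. FPKM is the number of fragments scaled to transcript length and to the library's total. Both groups were of the same strain in a 5 L fermenter at 34 °C and pH 4.5, stirred at 375 rpm, aerated at 1 vvm (volumes of air per volume of culture and minute) and held at an overpressure of 0.05 MPa. Every library carries the same oxygen limitation treatment label, so no culture without it stands beside them, and oxygen supply cannot be told apart from culture age. The labels list 18, 24, 42 and 66 h for the series and not for each library, so times were matched to phases in chronological order. The 3 libraries of the exponential phase (18 h) and the 2 of the late limited phase (66 h) entered the fit and are given where they bear on the comparison. The labels do not say whether the replicates were separate cultures, so that p-values here describe the scatter among these libraries, possibly of technical origin. RNA came from whole broth, so a change in the share of one kind of hypha and a change within hyphae cannot be told apart.

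Aspergillus niger is a filamentous fungus that lives by secreting enzymes and taking up the sugars and amino acids they release, and it is grown in fermenters for its glucoamylase and other enzymes. Oxygen is the final electron acceptor of its respiratory chain, which feeds on the reducing power of glycolysis and the tricarboxylic acid cycle. Where oxygen is short, filamentous fungi can slow respiration and growth and change their use of carbon, nitrogen and the secretory route.

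The deposited values carried the depth of the libraries in their low values, which were whole multiples of the FPKM of 1 read. Among 8697 genes with values above 0 in 2 or more libraries, this step was recovered for 7822. Over those genes a library held 22934 to 24028 reads at 42 h and 17631 to 19603 reads at 24 h. One read was worth a median of 9.40 to 9.71 FPKM at 42 h and 12.1 to 13.4 FPKM at 24 h. FPKM summed to 974150 to 983397 per library at 42 h and to 1072183 to 1100826 at 24 h. A gene of 30 FPKM thus rested on a few reads per library.

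One 24 h library stood apart from the other 24 h libraries, toward 42 h. Its position was measured on genes called without it (limma, Benjamini-Hochberg adjusted p under 0.05), on a log2 scale on which 0% is the mean of the other 24 h libraries and 100% the mean of the 42 h libraries. Over 361 genes of 30 FPKM or more, 24 h replicate 1 lay at a median of 32.4% of the way, and 321 of these genes (88.9%) lay on the 42 h side. The shift was greater in genes that rose (median 53.3%, quartiles 34.1% and 72.9%) than in genes that fell (median 19.4%). Measured the same way, 24 h replicate 2 lay at -5.06% and replicate 3 at -4.35%, and the 42 h replicates at 5.80%, 0.06% and 5.52% of the way toward 24 h. Its depth, 1.11 relative to the shallowest library, lay between 1.02 and 1.00 in the other 24 h libraries and 1.38 to 1.43 at 42 h, and the part of depth in the shift was not tested. Without this library 215 genes rose (2.53% of 8489 tested) and 226 fell (2.66%), and 323 genes were called both with and without it. Of the 40 called genes whose values are given here, 38 were also called without it, and the exceptions were An01g00750 and EPR.

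**Figure D1:**
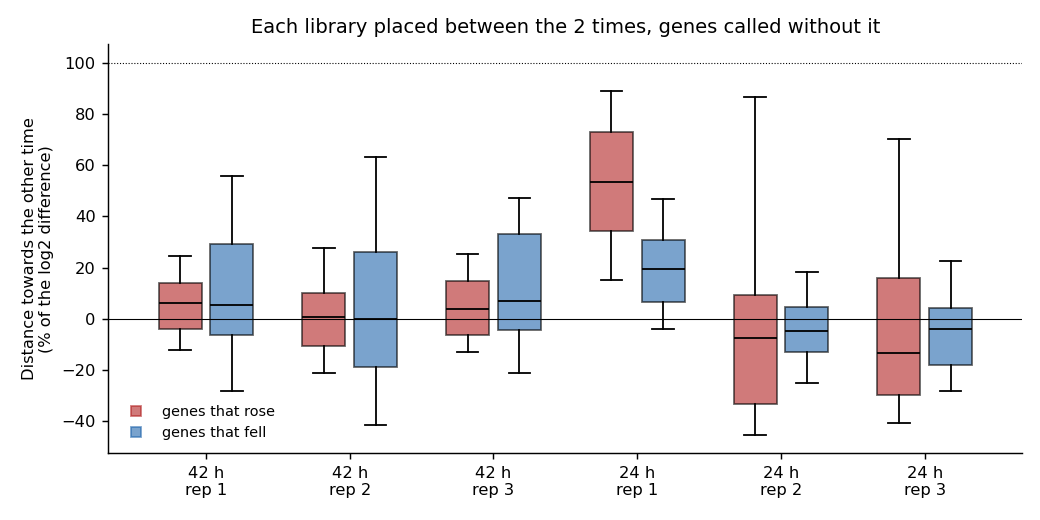
Position of each of the 6 libraries (horizontal axis) between its own group and the other, as a percentage of the log2 difference (vertical axis), over genes of 30 FPKM or more called without that library. Boxes span the quartiles with the median as a line, whiskers run over the 10th to the 90th percentile, red stands for genes that rose and blue for genes that fell. Only 24 h replicate 1 has boxes clear of 0% on the side of the other time, with medians of 53.3% and 19.4%.

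At 42 h 405 of the 8693 genes (4.66%) differed from 24 h at an adjusted p under 0.05 (limma on log2(FPKM + 1), Benjamini-Hochberg), with 162 that rose (1.86%) and 243 that fell (2.80%). Among the 2933 genes with a mean of 30 FPKM or more, 132 rose (4.50%) and 210 fell (7.16%), together 342 (11.7%). The changes were large in both directions. The genes of this level that rose did so by a median of 1.64 on the log2 scale (quartiles 1.19 and 2.34), with 42 genes at 4-fold or more and 22 at 8-fold or more. Those that fell had a median of -1.74 (quartiles -2.62 and -1.16), with 88 at 4-fold or more and 43 at 8-fold or more. The median over all genes tested was -0.01, and over those of 30 FPKM or more it was -0.11. In all 342 the 42 h libraries lay wholly above or wholly below the 24 h libraries, as did 469 genes higher (16.0%) and 651 lower (22.2%) among all 2933. Over all 8693 genes the groups did not overlap in 714 higher (8.21%) and 995 lower (11.4%). The excess of falls changed with the libraries used and with the scaling. Without 24 h replicate 1, on the values as deposited, 215 genes rose and 226 fell. When all libraries were scaled to an equal FPKM sum, limma called 195 rises and 185 falls, and with median-of-ratios scaling 184 rose and 191 fell. Those scalings placed the median of genes of 30 FPKM or more at 0.03 and 0.01.

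**Figure D2:**
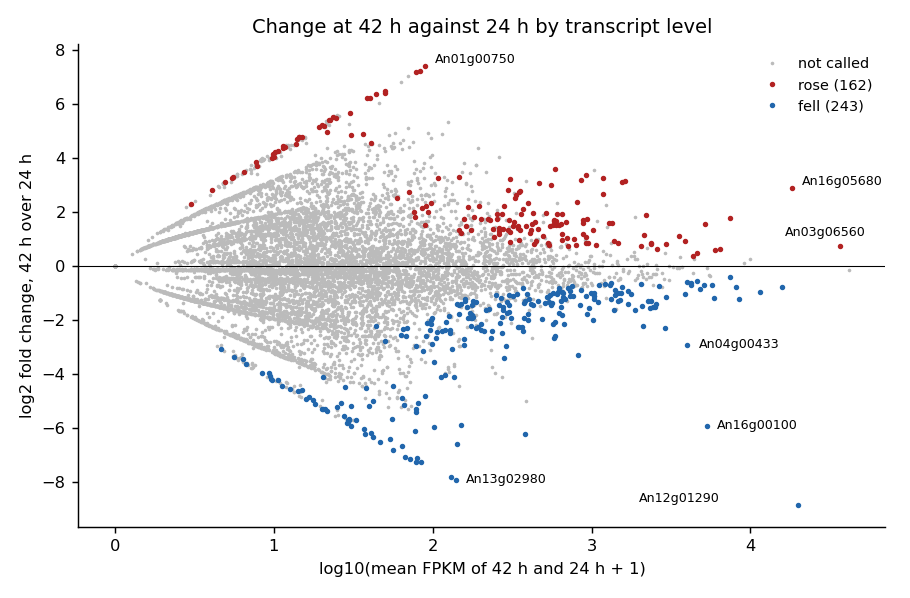
Log2 fold change of 42 h over 24 h (vertical axis) against the log10 of the mean FPKM of the 2 times plus 1 (horizontal axis), 1 point per gene tested. Grey points were not called, red points rose (162) and blue points fell (243). The called genes include the most abundant transcripts, and the thin arms at low levels are genes listed at 0 in one of the times.

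The share of genes called followed their level. Of the 164 genes with a mean of 1000 FPKM or more, 28 rose and 50 fell, which is 47.6% of them. Between 300 and 1000 FPKM, 58 rose and 59 fell of 408 genes (28.7%), and between 100 and 300 FPKM 28 rose and 59 fell of 758 (11.5%). Between 30 and 100 FPKM the calls were 18 rises and 42 falls of 1603 genes (3.74%). The median standard error of a log2 fold change was 0.17 at 1000 FPKM or more and 0.88 between 30 and 100 FPKM. At low levels a missing call therefore leaves room for large changes.

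Among called genes with a mean of 300 FPKM or more, the deepest falls included near losses of very abundant transcripts. The largest was An12g01290, which has no symbol in the reference table and was among the most abundant transcripts before 42 h. It stood at 51.7, 50.2 and 232 FPKM at 42 h, against 30240, 44217 and 44108 FPKM at 24 h (log2 fold change -8.83 ± 0.48 (SE), limma with Benjamini-Hochberg adjusted p = 5.19e-06). Those values stood for 13 reads over the 42 h libraries and 3440 over the 24 h libraries. It was higher still at 18 h, with 58020.0, 69848 and 65699 FPKM, and stayed low at 66 h, with 67.2 and 118 FPKM. No 42 h library came near any 24 h library.

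An16g00100, also without a symbol, had 131, 163 and 224 FPKM at 42 h, against 7595, 12947 and 11084 FPKM at 24 h (log2 fold change -5.93 ± 0.22 (SE), limma with Benjamini-Hochberg adjusted p = 3.06e-07), from 28 and 1268 reads. An04g00433 had 945, 884 and 941 FPKM at 42 h, against 6460.3, 6835 and 7692 FPKM at 24 h (log2 fold change -2.92 ± 0.13 (SE), limma with Benjamini-Hochberg adjusted p = 7.01e-07). The replicates of this gene lay close together at both times, and its 18 h values of 6196, 6550.2 and 7612 FPKM overlapped those at 24 h. An11g01690 had 83.1, 244 and 165 FPKM at 42 h, against 1304, 1415 and 1693 FPKM at 24 h (log2 fold change -3.28 ± 0.39 (SE), limma with Benjamini-Hochberg adjusted p = 0.00152), and the next tested gene along the contig, An11g01700 (chosen after its values were seen), fell with it. It had 50.7, 105 and 43.4 FPKM at 42 h, against 406, 324 and 451 FPKM at 24 h (log2 fold change -2.65 ± 0.41 (SE), limma with Benjamini-Hochberg adjusted p = 0.00449). An16g02980 had 0, 20.0 and 41.1 FPKM at 42 h, against 511, 639 and 1081 FPKM at 24 h (log2 fold change -6.20 ± 1.07 (SE), limma with Benjamini-Hochberg adjusted p = 0.0082), with 3 reads against 81, and it was the only one of these that was lost in an alternative, at an adjusted p of 0.0539 when limma was fitted to the 6 libraries alone (0.000457 to 0.0539 across all alternatives).

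Smaller falls took in some of the most abundant transcripts of the culture. An16g04190 had 11702, 11386 and 11889.6 FPKM at 42 h, against 18104, 21139.7 and 20077 FPKM at 24 h (log2 fold change -0.76 ± 0.07 (SE), limma with Benjamini-Hochberg adjusted p = 0.000195). An01g14075 had 8214, 7462 and 7658 FPKM at 42 h, against 14279, 17747 and 13534 FPKM at 24 h (log2 fold change -0.96 ± 0.13 (SE), limma with Benjamini-Hochberg adjusted p = 0.00238). Both were at similar levels at 18 h and 24 h, and the 42 h and 24 h libraries did not overlap in either. An04g02590, chosen after its values were seen, had 5252, 6281 and 6329 FPKM at 42 h, against 9509.7, 11045 and 10014 FPKM at 24 h (log2 fold change -0.78 ± 0.11 (SE), limma with Benjamini-Hochberg adjusted p = 0.00239). The calls of An16g04190, An01g14075 and An04g02590 were lost when the variance had no trend on level, and their limma adjusted p ran over 8.4e-05 to 0.373, 0.00117 to 0.284 and 0.000575 to 0.373 across all alternatives.

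Falls differed in what came before 24 h, as 5 genes chosen after their values were seen show. An07g10200 had 5189, 5179 and 4939.9 FPKM at 42 h, against 11159, 11357 and 13198 FPKM at 24 h (log2 fold change -1.22 ± 0.12 (SE), limma with Benjamini-Hochberg adjusted p = 0.000402), with 5136, 6371 and 6584 FPKM at 18 h. An11g07340 had 1049, 951 and 963 FPKM at 42 h, against 4073, 5094 and 5141 FPKM at 24 h (log2 fold change -2.26 ± 0.13 (SE), limma with Benjamini-Hochberg adjusted p = 5.19e-06), with 2160.4, 2369 and 2473 FPKM at 18 h. These last 2 peaked at 24 h. By contrast An01g06160 had 59.9, 70.8 and 63.2 FPKM at 42 h, against 291, 316 and 392 FPKM at 24 h (log2 fold change -2.34 ± 0.29 (SE), limma with Benjamini-Hochberg adjusted p = 0.0016), and 2384, 2623 and 1848 FPKM at 18 h, so it was already well down by 24 h. An07g09040 had 152, 172 and 152 FPKM at 42 h, against 798, 997 and 1220.0 FPKM at 24 h (log2 fold change -2.64 ± 0.21 (SE), limma with Benjamini-Hochberg adjusted p = 0.000128), and 1289, 1235 and 1379 FPKM at 18 h. An04g00420 had 154, 92.2 and 109 FPKM at 42 h, against 532, 696 and 616 FPKM at 24 h (log2 fold change -2.39 ± 0.26 (SE), limma with Benjamini-Hochberg adjusted p = 0.000738), and 612, 756 and 660.5 FPKM at 18 h, at the level of 24 h. Of these 5 calls that of An07g10200 was lost without the variance trend, with limma adjusted p of 8.4e-05 to 0.19 across all alternatives, and the others were lost in none.

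The largest rises among abundant genes shared a pattern: close replicates at 42 h, a 24 h replicate 1 well above the other 24 h libraries, and low values at 18 h. An07g07940 had 1138, 977 and 977 FPKM at 42 h, against 361, 24.9 and 63.6 FPKM at 24 h (log2 fold change 3.60 ± 0.85 (SE), limma with Benjamini-Hochberg adjusted p = 0.0375), with 21.0, 39.4 and 5.91 FPKM at 18 h. An03g06400 had 1539, 1597 and 1707 FPKM at 42 h, against 521, 93.3 and 73.3 FPKM at 24 h (log2 fold change 3.39 ± 0.63 (SE), limma with Benjamini-Hochberg adjusted p = 0.012). An02g10420 had 2088, 1674 and 2373 FPKM at 42 h, against 715, 97.2 and 132 FPKM at 24 h (log2 fold change 3.26 ± 0.69 (SE), limma with Benjamini-Hochberg adjusted p = 0.0222). In each, the highest 24 h value was replicate 1, several times the other 2, and it still lay under the lowest 42 h value. An01g05830 had 1507, 1599.6 and 1222 FPKM at 42 h, against 626, 76.9 and 78.5 FPKM at 24 h (log2 fold change 3.19 ± 0.72 (SE), limma with Benjamini-Hochberg adjusted p = 0.0307). An18g04350 had 2779.5, 2672 and 2876 FPKM at 42 h, against 1122, 176 and 155 FPKM at 24 h (log2 fold change 3.14 ± 0.58 (SE), limma with Benjamini-Hochberg adjusted p = 0.0119). None of the 5 has a symbol. They remained high at 66 h, An18g04350 with 3755 and 3568 FPKM and An07g07940 with 1305 and 1348 FPKM.

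The wide spread at 24 h made these 5 calls sensitive to single libraries. Without 24 h replicate 1 all 5 held, for example An18g04350 at a log2 fold change of 4.06 and limma adjusted p of 5.35e-06 (5.35e-06 to 0.0819 across all alternatives). Without 24 h replicate 2, 42 h replicate 2 or 42 h replicate 3 none of the 5 held at an adjusted p under 0.05 in limma, and without 24 h replicate 3 or 42 h replicate 1 An07g07940, An02g10420 and An01g05830 were lost, at adjusted p of 0.0522 to 0.121 over these fits. All 5 were also lost without the variance trend, all but An03g06400 in a limma fit to the 6 libraries alone (adjusted p 0.0548 to 0.0749), and An07g07940 at a pseudocount of 0.1 (0.0532). A gene chosen after its values were seen, An04g04130, had the same pattern with 2480.1, 2738 and 2976 FPKM at 42 h, against 722, 218 and 198 FPKM at 24 h (log2 fold change 3.11 ± 0.40 (SE), limma with Benjamini-Hochberg adjusted p = 0.00196), and was lost under none of the alternatives. Nor was An08g04650, chosen likewise, which had 867, 737 and 865 FPKM at 42 h, against 167, 72.8 and 74.6 FPKM at 24 h (log2 fold change 3.07 ± 0.46 (SE), limma with Benjamini-Hochberg adjusted p = 0.00411).

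Among the 5 called genes with the highest means, 2 rose. An16g05680 had 28818, 35181 and 29873 FPKM at 42 h, against 10043, 2476 and 2949 FPKM at 24 h (log2 fold change 2.90 ± 0.40 (SE), limma with Benjamini-Hochberg adjusted p = 0.00273), so that 24 h replicate 1 stood between the other 24 h libraries and those of 42 h. Without that library its log2 fold change was 3.53, at a limma adjusted p of 5.35e-06 (5.35e-06 to 0.0468 across all alternatives). An03g06560, the most abundant gene that rose, had 44962, 45340.0 and 48179 FPKM at 42 h, against 29341, 26467 and 25968 FPKM at 24 h (log2 fold change 0.76 ± 0.06 (SE), limma with Benjamini-Hochberg adjusted p = 0.000128). Its replicates at both times lay close together, with 26091, 27718 and 24581 FPKM at 18 h. It is the neighbour by locus number of glaA (An03g06550), the gene of glucoamylase, a starch-degrading enzyme for which the fungus is grown. The call of An03g06560 was lost without the variance trend, with limma adjusted p of 9.12e-06 to 0.373 across all alternatives. An11g03350, chosen after its values were seen, had 7950.0, 7277 and 7673 FPKM at 42 h, against 3776, 2111 and 2117 FPKM at 24 h (log2 fold change 1.57 ± 0.19 (SE), limma with Benjamini-Hochberg adjusted p = 0.00148), and 1238, 1252 and 1136 FPKM at 18 h. An07g05770, chosen likewise, had 11105, 10635 and 11915 FPKM at 42 h, against 5792, 2627 and 2264 FPKM at 24 h (log2 fold change 1.78 ± 0.35 (SE), limma with Benjamini-Hochberg adjusted p = 0.0157), and 1143, 1133 and 523 FPKM at 18 h. Both climbed at each step from 18 h to 42 h in their means. Without the variance trend both calls were lost, and that of An07g05770 also without replicate 2 or 3 of 24 h or any library of 42 h, at limma adjusted p of 0.0613 to 0.169 for that gene.

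Not all rises continued a trend from 18 h. Of the 132 genes of 30 FPKM or more that rose, 64 had a 24 h mean above their 18 h mean and 66 below it. A set of 3 genes below it, chosen after their values were seen, were lowest at 24 h and differed in where they stood at 42 h against 18 h. An11g10890 had 943, 1108 and 967 FPKM at 42 h, against 516, 170.1 and 209 FPKM at 24 h, and 1319.8, 1141 and 1275 FPKM at 18 h (log2 fold change 1.92 ± 0.34 (SE), limma with Benjamini-Hochberg adjusted p = 0.00904). An09g05010 had 3284, 3605 and 3304 FPKM at 42 h, against 1668, 619 and 698 FPKM at 24 h, and 2312, 2220.2 and 1722 FPKM at 18 h (log2 fold change 1.92 ± 0.30 (SE), limma with Benjamini-Hochberg adjusted p = 0.0052). An02g14170 had 547, 424 and 567 FPKM at 42 h, against 135, 88.3 and 30.2 FPKM at 24 h, and 274, 430.0 and 279.8 FPKM at 18 h (log2 fold change 2.82 ± 0.46 (SE), limma with Benjamini-Hochberg adjusted p = 0.00622). At 42 h the libraries of An09g05010 lay above those at 18 h, those of An11g10890 below, and those of An02g14170 overlapped them. All 3 were lost in limma without the variance trend, and An11g10890 also in a fit to the 6 libraries alone, at adjusted p of 0.053 to 0.119 over these fits. Of the 210 genes that fell, 150 had a 24 h mean above their 18 h mean and 60 below it. The same 24 h values chose both lists, which favours low 24 h means among rises and high ones among falls. Both splits are thus a description and do not show how common a peak or dip at 24 h was.

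**Figure D3:**
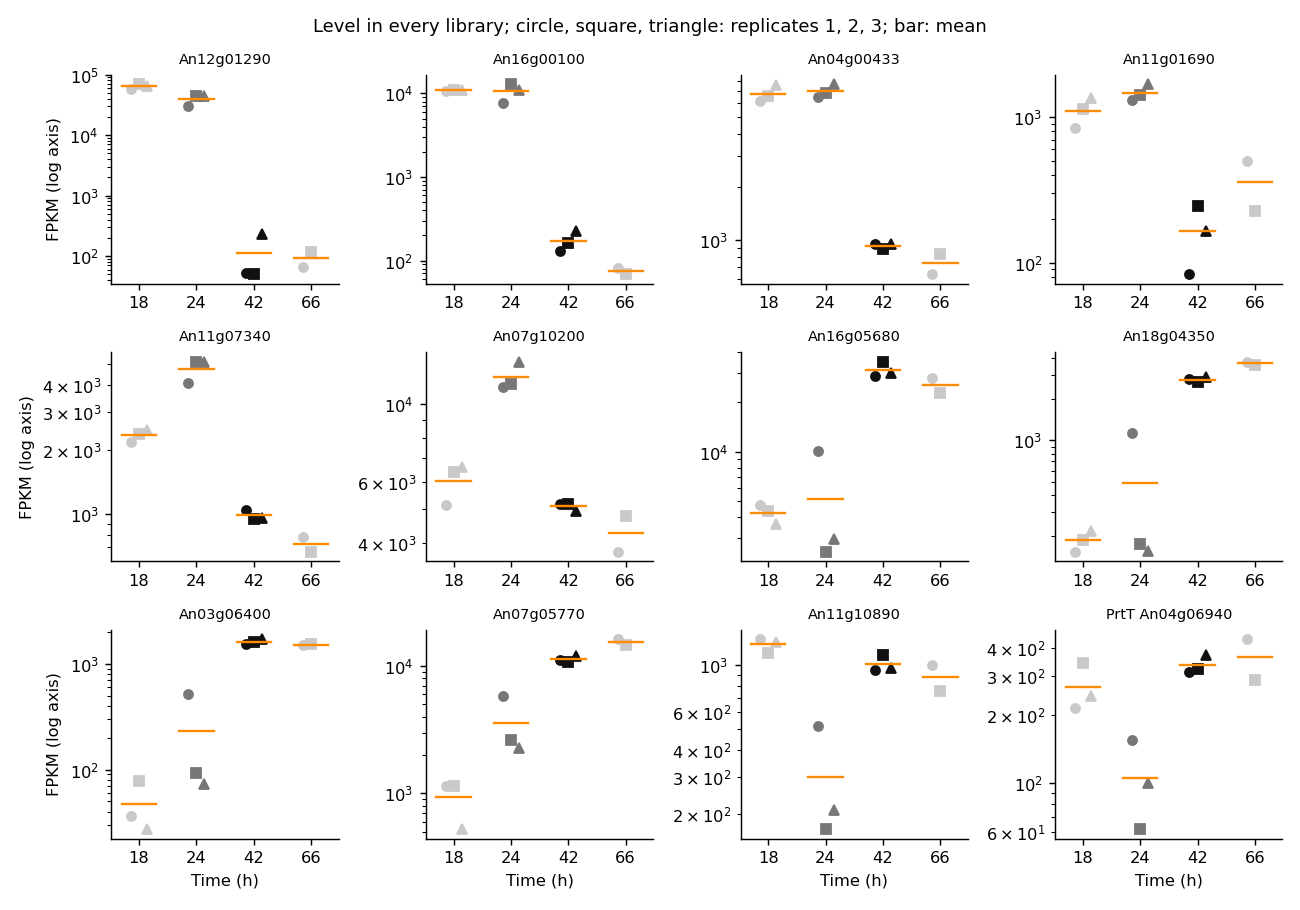
FPKM on a log axis in every library of 12 genes, by time in hours, with 42 h in black, 24 h in dark grey and 18 h and 66 h in light grey. Circles, squares and triangles are replicates 1, 2 and 3 and the orange bars are means. In the genes that rose, the circle of 24 h replicate 1 lies above the other 24 h symbols, whereas An12g01290 and An16g00100 drop by orders of magnitude with no overlap.

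Some calls were genes listed at 0 in one of the groups, where the values are few reads and a fold has no meaning. At 42 h 38 of the genes that rose had been listed at 0 in all 24 h libraries, 9 of them with a mean of 30 FPKM or more, and 46 of those that fell were listed at 0 in all 42 h libraries, 16 with that mean. The share of all tested genes listed at 0 in a group is not given here, so these counts are a description only. An13g02980, chosen after its values were seen, had 0, 0 and 0 FPKM at 42 h, against 119, 258 and 463 FPKM at 24 h, or 0 against 26 reads (adjusted p = 0.00759 by limma after Benjamini-Hochberg). Its neighbour An13g02990 had 0, 0 and 0 FPKM at 42 h, against 29.2, 42.4 and 43.3 FPKM at 24 h. Both were low or at 0 at 18 h, so their transcripts were seen mainly at 24 h. An11g00420, like the other genes of this kind given here chosen after its values were seen, had 0, 0 and 0 FPKM at 42 h, against 47.0, 34.1 and 34.9 FPKM at 24 h, and was at 0 in every 18 h and 66 h library. This gene passed the filter through its 24 h values alone, on 7 reads, so its call is a description only. In the other direction An16g05750 had 37.2, 50.5 and 22.3 FPKM at 42 h, against 0, 0 and 0 FPKM at 24 h, or 15 against 0 reads, and was called under every alternative. An01g00750 had 119, 233 and 178 FPKM at 42 h, against 0, 0 and 0 FPKM at 24 h (adjusted p = 0.027 by limma after Benjamini-Hochberg). It was also at 0, 148 and 0 FPKM at 18 h, and its call was lost when any 1 of the 6 libraries was left out or the variance had no trend, at adjusted p of 0.0646 to 0.103. The call of An13g02990 was lost in limma without replicate 2 or 3 of 24 h or any library of 42 h, at adjusted p of 0.0634 to 0.0697.

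Of the 405 calls, 63 were genes with a mean under 30 FPKM, 30 that rose and 33 that fell. Where reads could be recovered these rested on a median of 5 reads over the 6 libraries. Among 207 called genes of any level with recovered reads, 64 had 10 or fewer.

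Changed genes held a large part of each library. The 162 genes that rose held 23.9% ± 0.36 of summed FPKM at 42 h and 9.11% ± 2.06 at 24 h (SD, n = 3 each), and the 243 that fell held 13.0% ± 0.30 at 42 h and 30.4% ± 2.77 at 24 h. These shares follow from how the lists were made and are a description. The 18 h and 66 h libraries entered the variance of the fit but not its fold change, and in them the genes that rose held 24.3% ± 0.95 at 66 h (n = 2) and 9.57% ± 0.59 at 18 h (n = 3), and those that fell held 11.8% ± 0.58 at 66 h and 29.1% ± 0.96 at 18 h. Among the 24 h libraries replicate 1 held 11.5% in genes that rose and 27.2% in genes that fell, replicate 2 held 7.79% and 31.9%, and replicate 3 held 8.06% and 32.0%. A single transcript did not carry the shares. Without An03g06560, the genes that rose held 19.1% ± 0.42 at 42 h and 6.60% ± 1.87 at 24 h, and without An12g01290 those that fell held 13.0% ± 0.29 at 42 h and 26.8% ± 2.06 at 24 h.

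**Figure D4:**
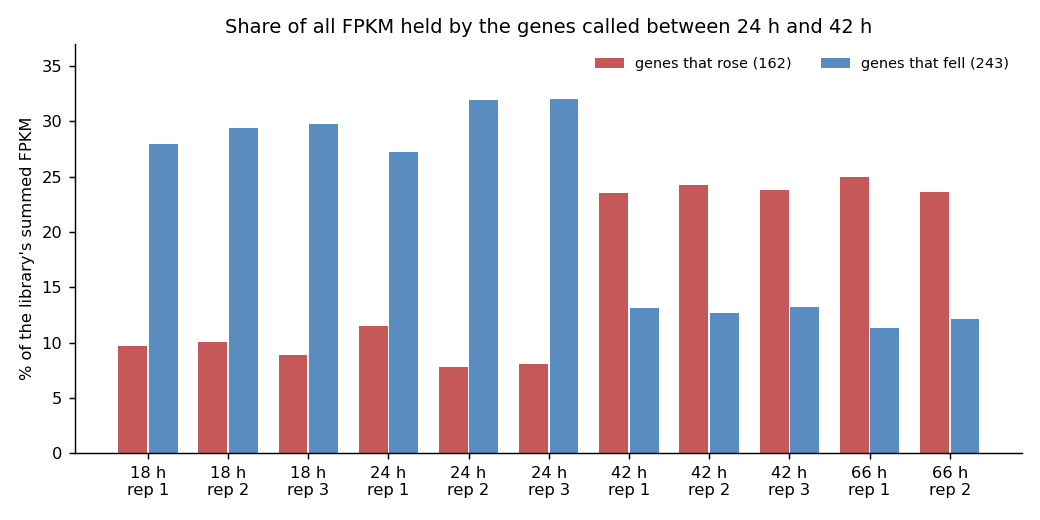
Percentage of each library's summed FPKM (vertical axis) held by the 162 genes that rose (red) and the 243 that fell (blue), 1 pair of bars per library in order of time. At 42 h and 66 h the red bars are the taller, and at 18 h and 24 h the blue bars are the taller. The red bar of 24 h replicate 1 is the tallest of the 24 h libraries.

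The direction was then read at 66 h against 18 h, whose libraries have no part in the fold change of 42 h over 24 h but share its filter and gene variances. There 525 of 8693 genes (6.04%) were called, 253 that rose (2.91%) and 272 that fell (3.13%). Of the 132 genes of 30 FPKM or more that rose at 42 h over 24 h, 73 (55.3%) also rose at 66 h over 18 h, 1 fell and 58 were not called, against 192 rises among all 2933 such genes (6.55%). Their median log2 fold change at 66 h over 18 h was 1.52. Of the 210 that fell, 121 (57.6%) also fell, 0 rose and 89 were not called, against 241 falls among all 2933 (8.22%), and their median was -1.39. The 2933 genes were not matched in level to the called ones, and the share called at 42 h over 24 h rose with level. The part of level in these shares was not tested. By sign alone 116 of the 132 and 205 of the 210 went the same way, and the median over all genes of this level was -0.10. Over all levels, 207 genes were called the same way in both comparisons, which is 51.1% of the 405 and 39.4% of the 525, and 2 were called in opposite directions. Without 24 h replicate 1 it was 247 of 441 calls. In a list made after seeing the data from the 42 h and 24 h libraries alone, with a mean of 30 FPKM or more over them, 77 of 85 genes that rose and 158 of 163 that fell had the same sign at 66 h over 18 h. Over all 2920 genes of that level 48.4% were above 0 and 51.6% below it.

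Changed genes lay beside one another in several places. Along the contigs of the reference table, 29 of 237 genes that fell and had a tested neighbour (12.2%) had a neighbour that also fell, against 4.95% of all 8384 tested genes with a tested neighbour. For genes that rose it was 14 of 156 (8.97%), against 3.23%. Without 24 h replicate 1 it was 24 of 219 genes that fell, against 4.70% of tested genes, and 14 of 206 that rose (6.80%), against 4.36%. Of 7282 neighbouring pairs 15 fell together, 7 rose together and 6 went opposite ways. The shares are a description, since neighbours can share position, length and level. An11g07340, given above, and An11g07350 were such a pair. An11g07350 had 369, 417 and 436 FPKM at 42 h, against 1322, 1821 and 1764 FPKM at 24 h (log2 fold change -1.99 ± 0.17 (SE), limma with Benjamini-Hochberg adjusted p = 0.000172), with 933, 866 and 857 FPKM at 18 h, so both of the pair were highest at 24 h. An14g02560 and An14g02590, neighbours like the others named here chosen after their values were seen, rose together. An14g02590 had 469.6, 579 and 583 FPKM at 42 h, against 198, 92.4 and 41.9 FPKM at 24 h (log2 fold change 2.55 ± 0.59 (SE), limma with Benjamini-Hochberg adjusted p = 0.0352), and 34.6, 37.1 and 9.74 FPKM at 18 h. An14g02560 had 1111, 1231 and 1523 FPKM at 42 h, against 815, 253 and 369.9 FPKM at 24 h (log2 fold change 1.59 ± 0.37 (SE), limma with Benjamini-Hochberg adjusted p = 0.0347). The calls of this last pair ended in limma without the variance trend, in a fit to the 6 libraries and without any of 24 h replicate 2, 24 h replicate 3 or the 42 h libraries, at adjusted p of 0.0507 to 0.217.

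Only 91 tested genes carry a symbol, and only for these can a role be named here. Of these 4 were called (4.40%), close to the share of all genes, 3 that rose and 1 that fell, and 14 had an unadjusted p under 0.05. Over all genes tested 4.66% were called, 17.0% had an unadjusted p under 0.05, 46.7% lay above 0 and 50.2% below it, and the counts of the lists below stand against these shares. The symbol genes given below that were not called were chosen after their values were seen. PrtT, which encodes the transcription activator of the extracellular protease genes, rose. It had 313, 322 and 371 FPKM at 42 h, against 154, 61.9 and 99.2 FPKM at 24 h (log2 fold change 1.76 ± 0.35 (SE), limma with Benjamini-Hochberg adjusted p = 0.0162), without overlap. Its 18 h values of 216, 343 and 243 FPKM and 66 h values of 437 and 288 FPKM also lay above 24 h, so the 24 h libraries were the lowest. Leaving out replicate 2 or 3 of 24 h, or replicate 2 or 3 of 42 h, ended the limma call, as did a fit to the 6 libraries and one without the variance trend, at adjusted p of 0.0504 to 0.135. Among the 9 tested genes of the protease list PrtT, a regulator, alone was called, 8 lay above 0 and 3 rested on 10 or fewer reads. The median log2 fold change was 0.26, against -0.01 over all genes tested. In limma 2 of the list had an unadjusted p under 0.05, PrtT and kexB. The latter lay below 0 (log2 fold change -2.62), with 0 reads at 42 h against 6 at 24 h.

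Glycolysis gave a single call. pkiA encodes pyruvate kinase, the enzyme of the last step of glycolysis. It had 1442, 1426 and 1216 FPKM at 42 h, against 830.4, 694 and 805 FPKM at 24 h (log2 fold change 0.81 ± 0.18 (SE), limma with Benjamini-Hochberg adjusted p = 0.0292). The 18 h values of 1912, 2404 and 1446 FPKM were as high as or higher than those at 42 h. Without replicate 2 or 3 of 24 h or any library of 42 h, and without the variance trend, its call was lost at limma adjusted p of 0.0511 to 0.378. pfkA, of phosphofructokinase, went the other way in its means, with 20.6, 24.9 and 15.5 FPKM at 42 h, against 51.5, 56.0 and 42.9 FPKM at 24 h, but rested on 12 and 22 reads and did not pass (log2 fold change -1.28 ± 0.55 (SE), limma with Benjamini-Hochberg adjusted p = 0.26). gpdA, of glyceraldehyde-3-phosphate dehydrogenase, had 370.1, 370.5 and 407 FPKM at 42 h, against 568, 401 and 324 FPKM at 24 h and overlapped (log2 fold change -0.13 ± 0.22 (SE), limma with Benjamini-Hochberg adjusted p = 0.789). Of the 7 tested genes of the list, 1 rose and 0 fell, 2 had an unadjusted p under 0.05 in limma, 1 was called with precision weights, and the median was -0.28. In this list 2 genes rested on 10 or fewer reads over the 6 libraries.

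Respiration and fermentation genes gave no call in limma. Of 3 genes of the tricarboxylic acid cycle and anaplerosis, 4 of the respiratory chain and alternative oxidase and 3 of alcohol, aldehyde and acetate use, 0 passed, 0 had an unadjusted p under 0.05 and 0 were called with precision weights. aox1, of the alternative oxidase, which passes electrons to oxygen beside the cytochrome route, had 566, 445 and 283 FPKM at 42 h, against 381, 271 and 261 FPKM at 24 h (log2 fold change 0.47 ± 0.29 (SE), limma with Benjamini-Hochberg adjusted p = 0.46). The groups overlapped. adhA, of an alcohol dehydrogenase, had 82.8, 45.8 and 47.2 FPKM at 42 h, against 29.4, 16.0 and 49.0 FPKM at 24 h (log2 fold change 0.96 ± 0.53 (SE), limma with Benjamini-Hochberg adjusted p = 0.391), and citA, of citrate synthase, had 69.0, 50.1 and 164 FPKM at 42 h, against 96.7, 105 and 35.8 FPKM at 24 h (log2 fold change 0.21 ± 0.63 (SE), limma with Benjamini-Hochberg adjusted p = 0.942). At 15 and 6 reads for adhA, depth limits what can be said. In the respiratory chain list 3 of the 4 genes rested on 10 or fewer reads over the 6 libraries. In the tricarboxylic acid cycle list 1 of the 3 did. A missing call in these genes does not mean that they were unchanged.

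Of the starch list glaA and the amyA loci were abundant at both times, and no member passed the test. glaA, of glucoamylase, had 5013, 4073 and 5427 FPKM at 42 h, against 4226, 4076 and 3607 FPKM at 24 h (log2 fold change 0.28 ± 0.12 (SE), limma with Benjamini-Hochberg adjusted p = 0.243), with 1 library of 42 h inside the 24 h range, while its 18 h values were 2187, 2089 and 2325 FPKM. amyA, of alpha-amylase, had 1078, 1119 and 1102 FPKM at 42 h, against 1302, 1795 and 1260.0 FPKM at 24 h (log2 fold change -0.38 ± 0.15 (SE), limma with Benjamini-Hochberg adjusted p = 0.221). Another amyA locus, An12g06930, has the same values in every library, so reads of the pair cannot be split. Of the 5 tested genes, 0 were called by limma or with precision weights and 3, including both amyA loci, had an unadjusted p under 0.05. Their median was -0.07, and it was 0.07 and 0.05 after scaling to an equal FPKM sum and by the median of ratios, the single list whose median changed sign. aglU, of alpha-glucosidase, had 49.0, 71.1 and 106 FPKM at 42 h, against 71.3, 44.4 and 136 FPKM at 24 h (log2 fold change -0.07 ± 0.49 (SE), limma with Benjamini-Hochberg adjusted p = 1). Outside the list, suc1, of the sucrose-splitting invertase, had 89.7, 53.4 and 89.6 FPKM at 42 h, against 112, 84.2 and 143 FPKM at 24 h (log2 fold change -0.54 ± 0.72 (SE), limma with Benjamini-Hochberg adjusted p = 0.722).

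Of the 9 tested genes of endoplasmic reticulum folding and secretory traffic, 7 lay below 0 and 2 above, with a median of -0.26, and 5 rested on 10 or fewer reads over the 6 libraries. None was called by limma or with precision weights, and 1 had an unadjusted p under 0.05. That was bipA, which encodes the BiP chaperone of the endoplasmic reticulum. It had 283, 286 and 379.6 FPKM at 42 h, against 556, 466 and 501 FPKM at 24 h (log2 fold change -0.69 ± 0.23 (SE), limma with Benjamini-Hochberg adjusted p = 0.152), and the groups did not overlap. Of 14 tested genes of plant cell wall and pectin enzymes 11 lay above 0 and 3 below, with a median of 0.61, but 10 of the 14 rested on 10 or fewer reads over the 6 libraries. Of these genes 0 were called by either weighting and 0 had an unadjusted p under 0.05 in limma. eglB, of an endoglucanase, had 201, 134 and 150.2 FPKM at 42 h, against 125, 102 and 34.7 FPKM at 24 h (log2 fold change 1.05 ± 0.48 (SE), limma with Benjamini-Hochberg adjusted p = 0.295).

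All 4 tested genes of amino acid synthesis lay below 0, with a median of -1.97, on few reads. leu2A had 0 reads at 42 h against 5 at 24 h, argB 4 against 14, trpC 6 against 10, and argA 12 against 12. None was called by limma, 1 had an unadjusted p under 0.05, and 1 was called with precision weights. Both ribosomal protein genes lay below 0, and 1 had an unadjusted p under 0.05, with 0 called by limma or with precision weights. That was rpl15, which had 211, 266 and 126 FPKM at 42 h, against 261, 511 and 436 FPKM at 24 h (log2 fold change -1.01 ± 0.38 (SE), limma with Benjamini-Hochberg adjusted p = 0.194). The 3 nitrogen assimilation genes had 0 calls, 0 at an unadjusted p under 0.05 in limma and 0 with precision weights. niaD, of nitrate reductase, had 418, 337 and 488 FPKM at 42 h, against 406, 316 and 341 FPKM at 24 h (log2 fold change 0.22 ± 0.25 (SE), limma with Benjamini-Hochberg adjusted p = 0.688). gdhA, of glutamate dehydrogenase, had 116, 129 and 240.1 FPKM at 42 h, against 233, 205 and 209 FPKM at 24 h (log2 fold change -0.49 ± 0.47 (SE), limma with Benjamini-Hochberg adjusted p = 0.68), also with overlap. Of 9 transcription regulators PrtT alone was called, and 3 rested on 10 or fewer reads over the 6 libraries. The median was 0.46 over the 9 and -0.31 over the 5 with a mean of 30 FPKM or more. No locus of the files matched the 6 symbols of conidiation and pigment genes, so spore markers were not analysed here.

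Beyond the lists, 1 symbol gene fell and 1 more rose. sspB had 386, 458 and 392 FPKM at 42 h, against 740.4, 869 and 1110.1 FPKM at 24 h (log2 fold change -1.12 ± 0.18 (SE), limma with Benjamini-Hochberg adjusted p = 0.0056), without overlap, and 1100.3, 1053 and 1203 FPKM at 18 h. Its call was lost in limma only without the variance trend, at an adjusted p of 0.239 (0.00283 to 0.239 across all alternatives). EPR, with a mean of 5.52 FPKM and chosen after its values were seen, had 31.0, 7.50 and 15.5 FPKM at 42 h, against 0, 0 and 0 FPKM at 24 h. That is 7 reads against 0 (adjusted p = 0.0469 by limma after Benjamini-Hochberg). EPR was no longer called when any 1 of the libraries but 42 h replicate 2 was left out, and likewise in a fit to the 6 libraries alone, without a filter or at a pseudocount of 0.1, at limma adjusted p of 0.0526 to 0.119. ostA lay just outside the threshold with 568, 621 and 543 FPKM at 42 h, against 324, 330.1 and 303 FPKM at 24 h (log2 fold change 0.85 ± 0.22 (SE), limma with Benjamini-Hochberg adjusted p = 0.0525). Its groups did not overlap, and it passed under 6 of the 16 alternatives (0.0295 to 0.365 across all).

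**Figure D5:**
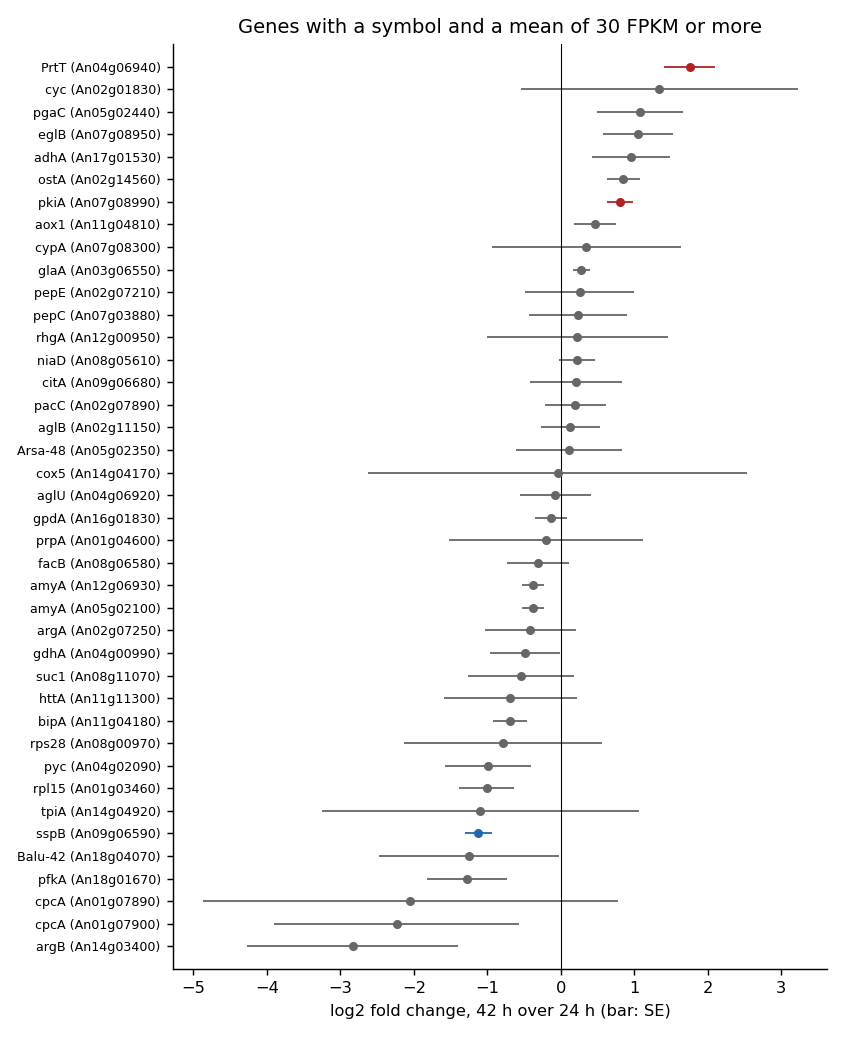
Log2 fold change of 42 h over 24 h (horizontal axis, bar: SE) of the 40 genes that carry a symbol and have a mean of 30 FPKM or more, 1 row per gene. Red points rose (PrtT and pkiA), the blue point fell (sspB) and grey points did not pass the test. The genes of starch degradation, respiration and secretion are grey, and their error bars widen toward genes of low level.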

How the data were processed

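RNA-seq libraries of Aspergillus niger DS03043 were analysed as the FPKM values the authors deposited, 1 per gene and library, for 4 growth phases (n = 3, and 2 in the late limited phase). RSEM is the tool named, per the submitters' processing notes, with no version; aligner, build and gene models were not given in the sources used here. Total RNA from frozen broth was made into standard Illumina libraries, per the labels' protocols. FPKM is relative to each library's total, so a change in the most abundant transcripts moves the values of all the rest.

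Genes with an FPKM of 1 or more in at least 2 libraries entered limma 3.58.1 (R 4.3.3) on the log2(FPKM + 1) scale, on all 11 libraries with a mean per phase, variances moderated by empirical Bayes toward a trend on level, and Benjamini-Hochberg adjustment over 8693 genes; fold changes on this scale understate those of low genes. The FPKM of 1 read was read from low values with a tolerance of 0.06. The test was first run on simulated counts with known changes, most of which it missed. At 300 FPKM or more it recovered 8 of 20 changes of 2-fold and 15 of 16 of 4-fold. Between 100 and 300 FPKM it recovered 1 of 14 and 8 of 20. Between 30 and 100 FPKM it recovered 0 of 42 and 0 of 38, and under 30 FPKM 0 of 19 and 0 of 22. Of its 34 calls 2 were of unchanged genes. Symbols came from a RefSeq table of assembly ASM285v2 (10417 genes matched, 28 did not, 102 with a symbol), used also for neighbours but for no coordinates. It holds no product names, so genes could be described by role only where they have a symbol.

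Genes named are called symbol genes of 30 FPKM or more (up to 8 each way), the 5 largest rises and 5 largest falls at 300 FPKM or more, the 5 most abundant called genes and list members that were called or define a list; exceptions are said to be chosen after their values were seen. The comparison, its members and the gene lists were chosen with earlier results of these data known, and the lists were matched after the symbols had been seen. Alternatives were other pseudocounts (0.1 and 10), filters, scalings, variance models, a replicate block, the 6 libraries alone and leaving out each library.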

Additional observations from a re-analysis of the deposited data

How the results depend on the processing

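The calls depended mostly on how the variance was estimated. Without a trend on level, limma called 132 genes, 52 that rose and 80 that fell, with 63 of them at 30 FPKM or more, and 61 were also called the same way at 66 h over 18 h. With precision weights 272 rose (604 in all), and with the 6 libraries alone 105 rose (291 in all). Leaving out 1 library gave 236 to 441 calls, 83 to 215 rises, 153 to 226 falls, 183 to 361 calls at 30 FPKM or more and 132 to 247 calls shared with 66 h over 18 h. The lowest counts came without 24 h replicate 2 and the highest without 24 h replicate 1. The cause was not tested. Of 880 values of 55 named genes, 40 of them called, over 16 alternatives, 98 lost a call and 6 gained one. Among the called ones 0 reversed in direction, which was largely fixed in advance. Changes of filter or variance model kept the fold change, and where groups did not overlap leaving out 1 library could not turn its sign. No pairing by replicate number was seen: correlations of deviations between same-numbered libraries were -0.0443, 0.0115 and -0.00156. These values cannot exclude a pairing. A replicate block gave 283 calls, 109 that rose and 174 that fell, of which 277 were among the 405. Under the block limma lost the calls of An07g07940, EPR and An13g02990, at adjusted p of 0.0515, 0.0705 and 0.0562. The list from the 6 libraries alone, chosen after seeing the data, shared 165 calls with 66 h over 18 h. Few reads limit low genes, whose standard errors are widest.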
